A study of Mus musculus with 6 samples.

Results

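The genes described here are p53 itself (Trp53), its 2 inhibitors Mdm2 and Mdm4, and 7 genes that p53 is known to activate (Ccng1, Sesn1, Phlda3, Zmat3, Aen, Trp53inp1 and Gadd45a), a set of 10 among 54752 gene identifiers. They were taken by gene symbol from RNA-seq counts of NIH/3T3 cells, an immortalised line of mouse embryonic fibroblasts, to ask whether TGF-β1 or BI6727 raises the output of p53. TGF-β1 is the cytokine that turns fibroblasts into contractile myofibroblasts, and BI6727 (volasertib) is an inhibitor of the mitotic kinase PLK1. All cells were grown in complete DMEM for 72 h, in 3 groups of 2 replicates. The first received PBS (vehicle), the second DMSO and 1 ng/ml of TGF-β1, and the third 5 μM BI6727 and the same dose of TGF-β1. No group received BI6727 without TGF-β1 or DMSO alone, and the vehicle cells received no DMSO, so TGF-β1 and DMSO cannot be told apart against vehicle. The labels name no solvent for BI6727. The study's methods speak of biological replicates, but for other numbers of groups and replicates than the labels give, and the labels do not say whether the libraries came from separate cultures, so p-values measure the spread between these libraries, which may be technical.

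p53 is a transcription factor that cells hold at a low level because MDM2, a ubiquitin ligase, marks it for degradation, and because MDM4, its relative, covers the part of p53 that activates genes. DNA damage and other stresses release it, mostly without a change in Trp53 mRNA, and it then activates genes of cell cycle arrest, repair and apoptosis together with Mdm2, which closes a feedback loop. NIH/3T3 cells are known to have lost Cdkn2a, whose product ARF restrains MDM2. Here Cdkn2a had 0 counts in every library.

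In the cells with TGF-β1 and DMSO the p53 target genes did not move one way. Mdm2 rose 2.39-fold and Gadd45a, a stress sensor that binds PCNA, rose 2.55-fold, while Sesn1, a sestrin that restrains mTORC1, fell to 0.427 of its vehicle level. The other 7 members, Trp53 included, did not pass the threshold used here, a Benjamini-Hochberg adjusted p below 0.01 and a fold change above 2, which 5.1% of all genes tested passed. With BI6727 against DMSO none of the 10 passed it, nor did any other gene tested (0%), and the largest of the 10 differences, that of Trp53inp1, was 0.23 ± 0.11 on the log2 scale (SE). The 3 calls of the DMSO group rested on both vehicle libraries, since none of them passed when either was left out.

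The bases in front of the start sites of these genes were read from RefSeq (GRCm38.p6, the mm10 build of the counts) and searched for the p53 decamer, the 10-base unit that p53 binds in pairs, a motif that is its own reverse complement, so that both strands were covered. Of the 10 members, 8 had a sequence there, with 11 start sites, and an exact decamer stood within 250 bases of a start site in 6 members and 6 of the 11 sequences. Of all 32851 mouse promoter windows of that length, 7.13% held one. In none of the 11 did a second exact decamer follow within 13 bases, an arrangement found in 0.0639% of all windows. Pairs with a mismatched decamer were not searched for, and the bases directly before the Ccng1 decamer below come close to a second one. A match to these letters is a description and not a site, and the known p53 element of Mdm2 lies in an intron, outside the window. Aen was the sixth member with a decamer, inside one of its exons and not shown. The stretches below are given for the members that moved (Mdm2, Gadd45a, Sesn1) beside members that did not pass the threshold (Ccng1, Trp53), with the decamer in capitals and up to 60 bases on each side that lie in no annotated exon. The Mdm2 stretch lies at chr10:117710875-117711004 on the minus strand, upstream of the gene, with the decamer starting 186 bases before the start site. The Sesn1 stretch lies at chr10:41887206-41887335 on the plus strand, in an intron of Sesn1 in front of its second start site, with the decamer 173 bases before it. The Ccng1 stretch lies at chr11:40755402-40755531 on the minus strand, upstream of the gene, with the decamer 185 bases before the start site. The Trp53 stretch lies at chr11:69580256-69580353 on the plus strand, between Trp53 and the oppositely directed gene Wrap53, with the decamer 75 bases before the start site. For Gadd45a only the decamer is given, at chr6:67037438-67037447 on the minus strand, because it lies 40 bases before the RefSeq start site but inside the first exon of the authors' annotation.
Mdm2: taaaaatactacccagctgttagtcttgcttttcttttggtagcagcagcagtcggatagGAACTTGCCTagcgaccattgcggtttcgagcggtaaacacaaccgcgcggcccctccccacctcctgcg
Sesn1: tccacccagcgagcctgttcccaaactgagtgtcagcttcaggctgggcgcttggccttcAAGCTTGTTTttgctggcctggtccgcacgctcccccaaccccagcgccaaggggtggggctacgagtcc
Gadd45a: GGGCTAGCCC
Ccng1: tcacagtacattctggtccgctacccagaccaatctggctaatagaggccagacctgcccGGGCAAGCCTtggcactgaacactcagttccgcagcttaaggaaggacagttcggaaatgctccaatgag
Trp53: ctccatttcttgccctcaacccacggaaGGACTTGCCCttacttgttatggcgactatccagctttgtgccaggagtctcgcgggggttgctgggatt

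The libraries held 18362378 to 24452153 counts on genes. Of the fibroblast markers, 8 of 9 stood at 10 CPM or more in every library, while the summed epithelial markers reached at most 0.612 CPM and the summed endothelial markers at most 3.57. The 3 leukocyte markers summed to 20.2 to 26.7 CPM, and 1 of them, Cd14, stood at 10 CPM or more in every library. Acta2, the smooth muscle actin that TGF-β1 induces, was 2.30 ± 0.10 higher (log2, SE) with TGF-β1 and DMSO than in vehicle. The other 2 myofibroblast markers fell short of the filter, Cnn1 with 25 and 21 counts in vehicle and 6 and 2 with DMSO, and Tagln with 9 and 6 against 17 and 33. Of the 9 fibroblast markers, 4 had positive and 5 negative differences in the DMSO group against vehicle. Pdgfra, at -1.87 ± 0.24, was the 1 called lower, where 2.53% of all genes tested were. At an adjusted p below 0.05, 3 were lower, among them Thy1 at -0.91 ± 0.10, and 0 higher, against 12% and 11% of all genes. With BI6727 against vehicle 3 were called lower and 5 were lower at an adjusted p below 0.05, against 2.96% and 13.2% of all genes. These 4 marker genes and Cd14 are named after their values were seen, and the part of such differences in the results below was not tested. After scaling, 9518 genes passed the filter on low counts, all 10 members among them, and the smallest count of a member in a library was 331. Values below are normalised CPM (counts per library scaled by TMM), each group as mean ± SD with n = 2, and fold changes carry the SE of the fit. The second DMSO library stood apart. The DMSO replicates differed, as an SD over genes on the log2 scale, by 0.377, against 0.163 in vehicle and 0.147 with BI6727. In each library a smooth curve on gene length was fitted to the deviations of its genes (log2, against the mean of all 6 libraries). In the second DMSO library the median of this curve was 0.20 among the shortest genes and -0.23 among the longest, of 4 bins. The corresponding medians lay between -0.09 and 0.09 in the other 5 libraries. Where this library moves a member's difference from vehicle by over 1.5 times, the value without it is given. Groups without overlap were common: 62.9% of all genes tested for DMSO against vehicle, 76.8% for BI6727 against vehicle and 34.1% for BI6727 against DMSO.

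**Figure D1:**
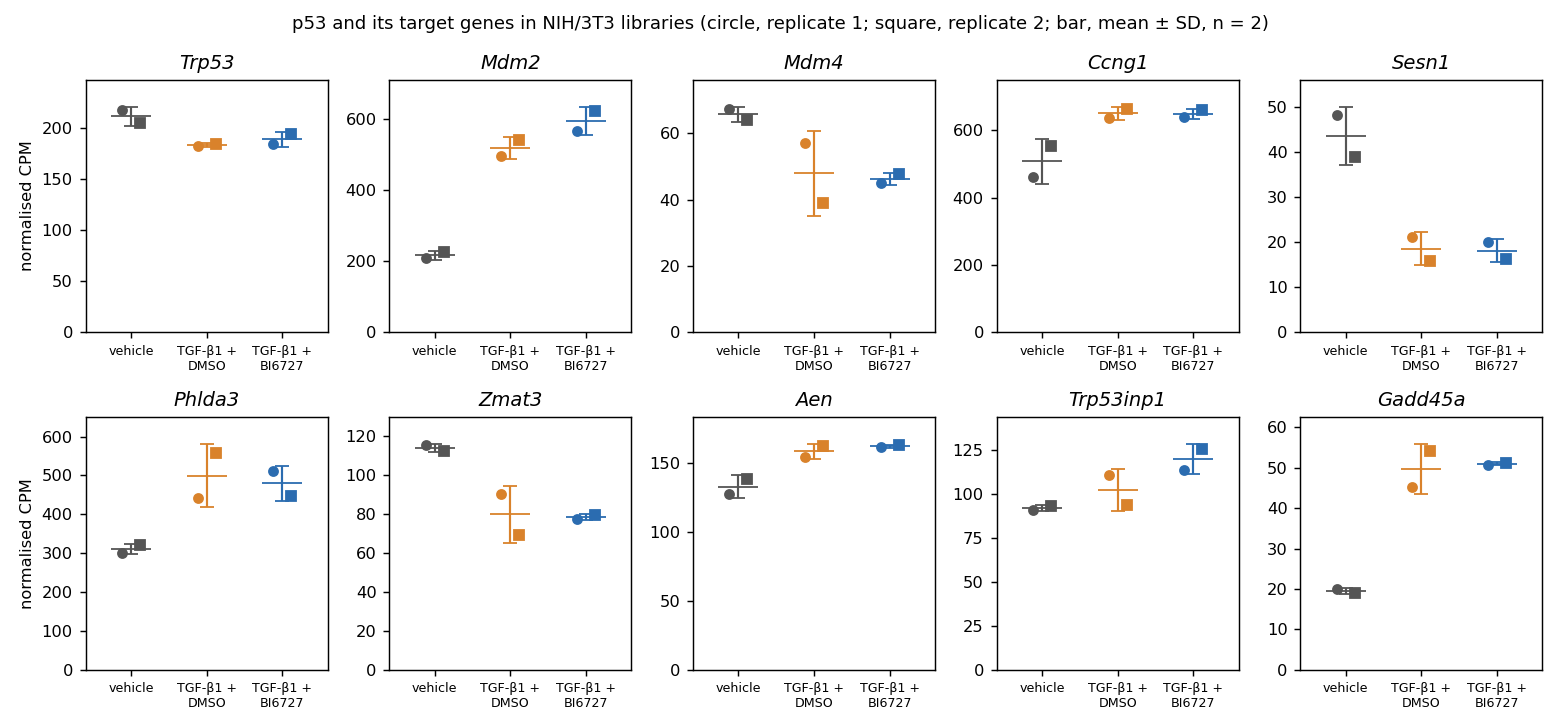
Normalised CPM (linear axes from 0, a scale of its own for each gene) of the 10 genes in the 6 NIH/3T3 libraries, by group; circles are replicate 1, squares replicate 2, bars the mean ± SD (n = 2). In Mdm2 and Gadd45a all 4 libraries with TGF-β1 lie far above the 2 vehicle libraries, in Sesn1 far below them, and the DMSO and BI6727 groups overlap in all genes but Mdm2 and Trp53inp1.

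Trp53 (chr11:69580359-69591873, plus strand) stood at 218 and 205 CPM in the vehicle libraries, 182 and 185 with TGF-β1 and DMSO, and 184 and 194 with TGF-β1 and BI6727. Every library with TGF-β1 was lower than both vehicle libraries. The difference of -0.21 ± 0.090 (log2, DMSO group minus vehicle) had an adjusted p of 0.141, and that of the BI6727 group, -0.16 ± 0.090, had 0.229. Of the 50-base windows of the Trp53 transcripts 3.95% also occurred in other genes, among them the pseudogene Trp53-ps, which held 530 to 789 counts in a library against 3305 to 4680 for Trp53.

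Mdm2 (chr10:117688875-117710758, minus strand), the ligase that degrades p53 and itself a p53 target, stood at 209 and 226 CPM in vehicle, at 498 and 541 with DMSO and at 567 and 624 with BI6727. The 3 groups did not overlap, and the share of all genes with all 3 groups apart was not counted. The group means were 217 ± 12.4, 519 ± 30.3 and 595 ± 40.1 CPM. The DMSO group exceeded vehicle by 1.26 ± 0.11 on the log2 scale (adjusted p = 0.000374, 95% interval 1.00 to 1.51). The BI6727 group exceeded vehicle by 1.45 ± 0.11 (adjusted p = 0.000181), a 2.74-fold difference. The DMSO value was 1.30 once a trend on gene length, described above, was taken out of each library. The counts join all Mdm2 transcripts, so its start sites cannot be told apart.

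Mdm4 (chr1:132959484-133030561, minus strand), the relative that holds p53 inactive, stood at 67.2 and 64.0 CPM in vehicle, 57.0 and 38.9 with DMSO, and 45.0 and 47.6 with BI6727. All libraries with TGF-β1 lay below vehicle, and the widest gap between replicates was that between the DMSO libraries. The log2 differences from vehicle were -0.45 ± 0.18 with DMSO (adjusted p = 0.106) and -0.50 ± 0.18 with BI6727 (adjusted p = 0.0788). The DMSO value was -0.19 without the second DMSO library, -0.76 without the first and -0.21 with the length trend removed, and the part of this trend in it was not tested. Mdm4 has the longest exonic sequence of the 10, 14798 bases.

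Per kilobase of exonic length, the ratio of Mdm2 to Trp53 mRNA was 0.762 and 0.878 in vehicle, 2.18 and 2.33 with DMSO, and 2.46 and 2.56 with BI6727. Mdm2 mRNA was thus the less abundant of the pair in vehicle and the more abundant in all 4 libraries with TGF-β1. The ratio of Mdm2 to Mdm4 was 9.03 and 10.3 in vehicle, 25.5 and 40.5 with DMSO, and 36.7 and 38.2 with BI6727. These are ratios of mRNA and say nothing of the proteins.

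Among the targets that act on the cell cycle and DNA damage, Gadd45a (chr6:67035096-67037457, minus strand) stood at 20.1 and 18.9 CPM in vehicle, 45.3 and 54.0 with DMSO, and 50.7 and 51.2 with BI6727. The libraries with TGF-β1 were all more than 2-fold above both vehicle libraries. The log2 difference from vehicle was 1.35 ± 0.13 with DMSO (adjusted p = 0.000598) and 1.39 ± 0.13 with BI6727 (adjusted p = 0.000482). The DMSO value was 1.23 with the length trend removed and 1.23 without the second DMSO library. A share of 19.1% of its exonic bases is covered by the opposite-strand gene E230016M11Rik, which held 3 to 15 counts in a library against 387 to 1237 for Gadd45a, and the strand setting of the counting is not given in the sources used here.

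Ccng1 (chr11:40748552-40755311, minus strand), cyclin G1, which recruits a phosphatase to MDM2, stood at 461 and 554 CPM in vehicle, 636 and 664 with DMSO, and 638 and 658 with BI6727. The groups with TGF-β1 lay above vehicle, and the gap between the vehicle replicates exceeded that from the higher of them to the nearest DMSO library. Its log2 differences of 0.36 ± 0.12 (adjusted p = 0.0696) and 0.35 ± 0.12 (adjusted p = 0.0693) did not pass. The DMSO value was 0.22 without vehicle replicate 1 and 0.50 without vehicle replicate 2.

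Sesn1 (chr10:41809935-41908424, plus strand) stood at 48.1 and 39.0 CPM in vehicle, 21.2 and 15.9 with DMSO, and 20.0 and 16.3 with BI6727. Every library with TGF-β1 lay below both vehicle libraries, the highest at 21.2 CPM. The log2 difference from vehicle was -1.23 ± 0.20 with DMSO (adjusted p = 0.005) and -1.27 ± 0.20 with BI6727 (adjusted p = 0.00411). With the length trend removed it was -1.23, and without the second DMSO library -1.02. Fitted on the vehicle and DMSO libraries alone, the value was -1.22 with an adjusted p of 0.0133, past the threshold no longer. The call was also lost without BI6727 replicate 1 or BI6727 replicate 2, at adjusted p-values of 0.0137 and 0.0131 for the DMSO group and 0.0281 and 0.0522 for the BI6727 group.

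Zmat3 (chr3:32334792-32366014, minus strand), an RNA-binding zinc-finger protein that shapes splicing, stood at 115 and 112 CPM in vehicle, 90.1 and 69.2 with DMSO, and 77.4 and 79.6 with BI6727. The 4 libraries with TGF-β1 lay below vehicle. The log2 differences were -0.51 ± 0.13 with DMSO (adjusted p = 0.0315) and -0.53 ± 0.13 with BI6727 (adjusted p = 0.0264), neither past the threshold. The DMSO value was -0.31 with the length trend removed and -0.32 without the second DMSO library, and the BI6727 value -0.44 with the trend removed. Like Mdm4, Zmat3 is long, with 11435 exonic bases.

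Among the targets linked to apoptosis, Phlda3 (chr1:135766119-135769136, plus strand), which competes with AKT for membrane lipids, stood at 302 and 321 CPM in vehicle, 443 and 557 with DMSO, and 512 and 448 with BI6727. The 2 groups with TGF-β1 overlapped each other and not vehicle. The log2 difference from vehicle was 0.68 ± 0.14 with DMSO (adjusted p = 0.0125) and 0.62 ± 0.14 with BI6727 (adjusted p = 0.0161), short of the threshold in both. Phlda3 has the shortest exonic sequence of the 10, 1559 bases, and its DMSO value was 0.56 with the length trend removed, 0.83 without the first DMSO library and 0.52 without the second.

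Aen (chr7:78895854-78911209, plus strand), a nuclease of apoptotic cells, stood at 127 and 139 CPM in vehicle, 155 and 162 with DMSO, and 162 and 163 with BI6727. Its log2 difference from vehicle was 0.25 ± 0.093 with DMSO (adjusted p = 0.0918) and 0.29 ± 0.093 with BI6727 (adjusted p = 0.0632). Trp53inp1 (chr4:11156431-11174379, plus strand), a stress protein that promotes apoptosis and autophagy, stood at 90.6 and 93.1 CPM in vehicle, 111 and 93.8 with DMSO, and 113 and 126 with BI6727. Its second DMSO library lay at the level of vehicle and its BI6727 libraries above both other groups. The log2 difference from vehicle was 0.15 ± 0.11 with DMSO (adjusted p = 0.349) and 0.38 ± 0.11 with BI6727 (adjusted p = 0.0479). The DMSO value was 0.02 without DMSO replicate 1 (adjusted p = 0.821) and 0.28 without DMSO replicate 2 (adjusted p = 0.0162).

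Counted over the 10, the threshold was passed in the DMSO group against vehicle by 2 genes that were higher (Mdm2 and Gadd45a) and 1 that was lower (Sesn1), where 5.1% of all 9518 genes tested passed it, 2.56% higher and 2.53% lower. At an adjusted p below 0.05 with no minimum fold, 5 members differed, 3 higher and 2 lower, against 23% of all genes (11% higher and 12% lower). All 10 were without overlap between the groups, 6 higher and 4 lower, as were 62.9% of all genes (29.8% higher and 33.1% lower). The median log2 difference of the 10 was 0.20, against a median near 0 (-0.0045) over all genes tested. Without vehicle replicate 1 or vehicle replicate 2, none of the 10 passed in a fit of the remaining 5 libraries, in which 1.33% and 1.69% of all genes did. The adjusted p was then 0.0185 and 0.0124 for Mdm2, 0.0185 and 0.0184 for Gadd45a, and 0.0695 and 0.0311 for Sesn1, and the lone vehicle library was assumed to vary like the other groups. The fold changes kept their direction there, at 1.19 and 1.32 for Mdm2, 1.38 and 1.31 for Gadd45a, and -1.08 and -1.37 for Sesn1 (log2).

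The question whether BI6727 changes p53 output is addressed by the comparison of the BI6727 with the DMSO libraries, which share TGF-β1. None of the 10 genes passed the threshold, and neither did any of the 9518 tested (0%). At an unadjusted p below 0.05 the count was 0 of 10 members and 6.68% of all genes by edgeR (2.16% higher and 4.52% lower). The log2 differences of the 10 ran from -0.06 (Phlda3) to 0.23 (Trp53inp1), with a median of 0.016 against -0.0028 over all genes. The groups did not overlap in 2 genes, Mdm2 and Trp53inp1, both higher with BI6727, and in 34.1% of all genes, 17% of all being higher. For Mdm2 the difference was 0.20 ± 0.11 (adjusted p = 0.76), with a 95% interval from -0.05 to 0.45. For Trp53inp1 it was 0.23 ± 0.11 (adjusted p = 0.759), with an interval from -0.04 to 0.49. Without DMSO replicate 1 that of Trp53inp1 was 0.35 with an adjusted p of 0.00528, still under a 2-fold change, and without DMSO replicate 2 it was 0.10 with 0.541.

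For the other 8 genes the same comparison gave intervals on both sides of 0. That of Trp53 ran from -0.17 to 0.25, that of Ccng1 from -0.28 to 0.28 and that of Gadd45a from -0.26 to 0.33. The widest was that of Sesn1, from -0.50 to 0.43. A 2-fold effect of BI6727 in either direction therefore lay outside the 95% interval of each of the 10 genes. Each interval covers a gene on its own and uses a spread shared by the 3 groups, although the DMSO replicates differed most. Smaller effects, up to the bounds of each interval, lay inside it together with 0, with 2 libraries a group. Against vehicle the BI6727 group gave the same 3 calls, Mdm2, Gadd45a and Sesn1, with 5.31% of all genes called (2.34% higher and 2.96% lower). At an adjusted p below 0.05 with no minimum fold, 6 members differed, 4 higher and 2 lower, against 24.5% of all genes (11.3% higher and 13.2% lower). All 10 were without overlap, as were 76.8% of all genes (38.4% higher and 38.3% lower). This comparison shares the vehicle libraries with that of the DMSO group. Without vehicle replicate 1 no member passed in it, with an adjusted p of 0.0109 for Mdm2, and without vehicle replicate 2 Mdm2 alone did.

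**Figure D2:**
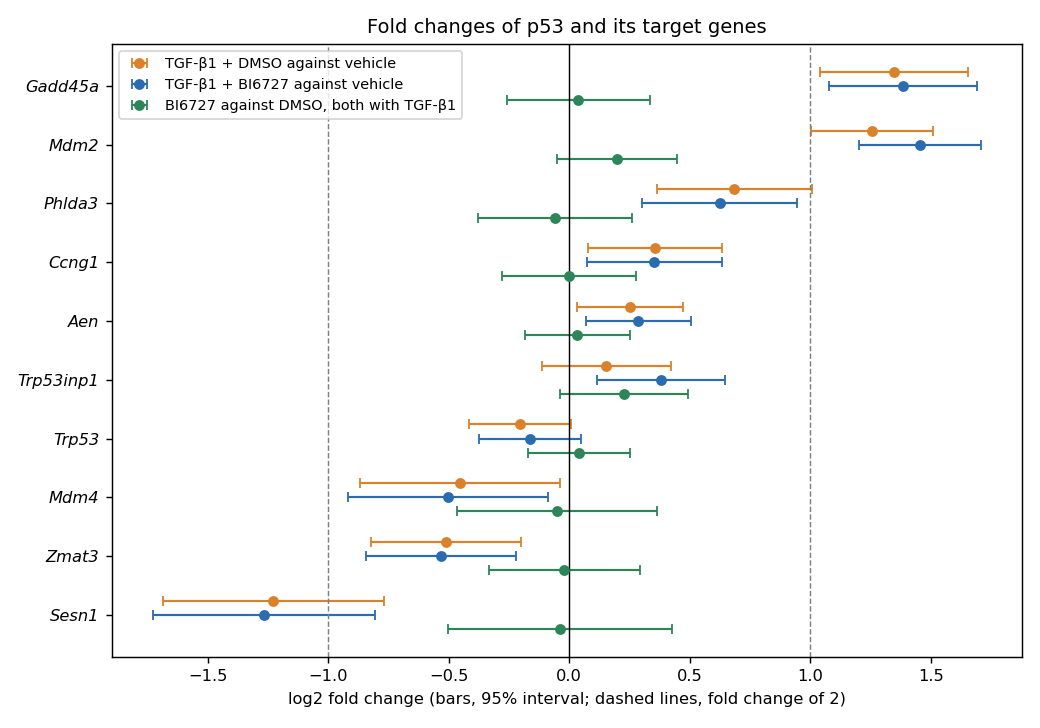
Log2 fold changes of the 10 genes (horizontal axis; points, with bars for the 95% interval) in the 3 comparisons, from edgeR's fit of all 6 libraries; dashed lines mark a 2-fold change. The values against vehicle spread from -1.27 (Sesn1) to 1.45 (Mdm2), while those of BI6727 against DMSO lie between -0.06 and 0.23 with every interval crossing 0 and none reaching a dashed line.

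The members depended unequally on which DMSO library was kept. Between the value without the first and the value without the second DMSO library, the log2 difference of the DMSO group from vehicle moved least for Trp53 (-0.20 and -0.20), Ccng1 (0.38 and 0.34) and Aen (0.28 and 0.23). It moved most for Mdm4 (-0.76 and -0.19), Sesn1 (-1.45 and -1.02) and Zmat3 (-0.72 and -0.32). These gaps hold any difference between the 2 DMSO libraries, not only their trends on gene length. With the length trend removed from every library, Sesn1 stayed at -1.23, while Mdm4 and Zmat3 came to -0.21 and -0.31. In that fit Mdm2, Gadd45a and Sesn1 passed the threshold as before and no other member did, where 5.32% of all genes passed.

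**Figure D3:**
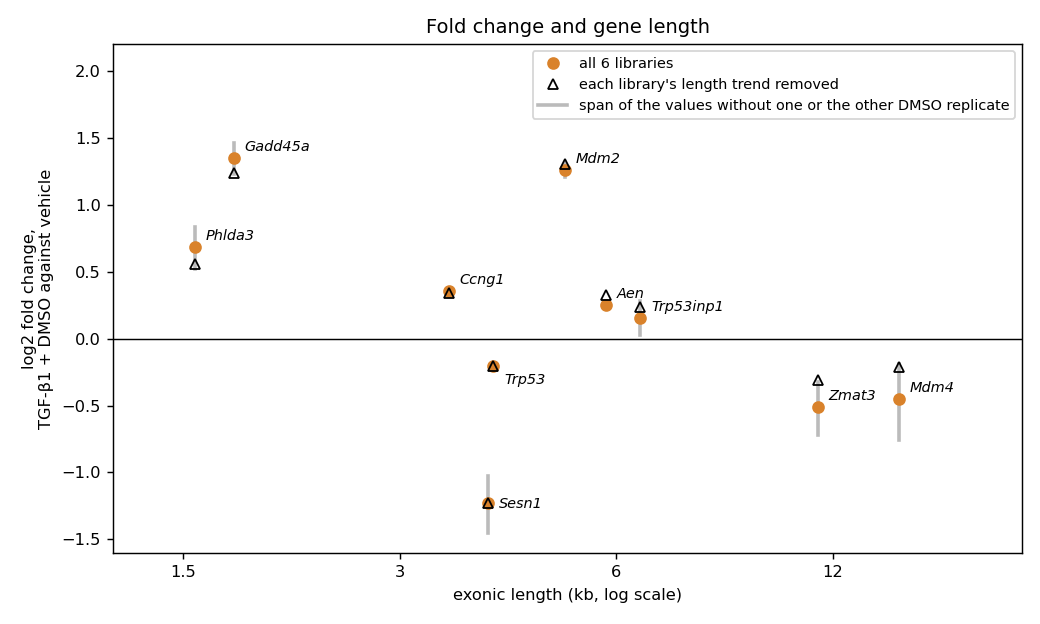
Log2 fold change of TGF-β1 with DMSO against vehicle (vertical axis) by exonic length in kb (horizontal log axis) for the 10 genes; filled points use all 6 libraries, triangles are corrected for the length trend of each library, and grey lines span the values without one or the other DMSO replicate. The long genes Mdm4 and Zmat3 move up towards 0 when the trend is removed (to -0.21 and -0.31), the short genes Phlda3 and Gadd45a move down (to 0.56 and 1.23), and Mdm2 and Sesn1 stay near 1.30 and -1.23.

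Per kilobase of exonic length, the vehicle levels of the 10 genes were highest for Phlda3 (199.6 ± 8.76 CPM per kb) and Ccng1 (144 ± 18.9), followed by Trp53 (52.3 ± 2.26), Mdm2 (42.8 ± 2.44), Aen (23.0 ± 1.41) and Trp53inp1 (14.2 ± 0.277). Gadd45a (11.1 ± 0.467), Sesn1 (10.9 ± 1.62) and Zmat3 (9.94 ± 0.186) followed, and the level of Sesn1 did not differ from either neighbour beyond its spread. Mdm4 was the lowest at 4.44 ± 0.154, above 18.5% of the genes tested, while Phlda3 was above 96.6% of them. With TGF-β1 and DMSO, Mdm2 reached 102 ± 5.95 CPM per kb and passed Trp53 (45.3 ± 0.448), and Gadd45a (28.1 ± 3.50) stood above Sesn1 (4.67 ± 0.943).

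The relatives of the members were followed as well, since p53 family and stress genes often come in sets. Gadd45b and Gadd45g, the paralogs of Gadd45a, were both called in both comparisons with vehicle. Gadd45g stood at 11.1 and 12.2 CPM in vehicle, 61.0 and 92.4 with DMSO, and 61.2 and 59.0 with BI6727, a rise of 2.72 ± 0.21 (log2, adjusted p = 0.00022) in the DMSO group. Gadd45b stood at 31.4 and 24.0 CPM in vehicle, 56.1 and 71.8 with DMSO, and 61.2 and 63.4 with BI6727, a rise of 1.21 ± 0.17 (adjusted p = 0.00326). All 3 Gadd45 genes thus rose with TGF-β1 and DMSO. Gadd45b is a known early response gene of TGF-β.

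The sestrins differed in direction. Sesn3 fell by 1.45 on the log2 scale (SE 0.21, adjusted p = 0.00368), from 78.9 and 64.4 CPM in vehicle to 32.0 and 20.3 with DMSO, and stood at 37.4 and 38.0 with BI6727. Its value was -1.15 without the second DMSO library and -1.22 with the length trend removed. Sesn2, which the unfolded protein and amino acid responses also induce, was 0.67 ± 0.12 higher (adjusted p = 0.00802), under 2-fold. Of the cyclin G pair, Ccng2 was 0.94 ± 0.099 higher with DMSO and passed the threshold with BI6727 against vehicle (1.09 ± 0.099, adjusted p = 0.000425). Trp53inp2 (0.13 ± 0.13) and Phlda1 (-0.16 ± 0.15) did not pass in any comparison. Trp63, a relative of p53, had 5 and 18 counts in the vehicle libraries and 0 in the other 4, Trp73 had 2 and 4 and then 0, and Phlda2 had 0 in all.

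The wider pathway was read from lists of 79 further genes, of which 66 passed the filter. In the DMSO group against vehicle 8 of the 66 were called, 6 higher and 2 lower, where 5.1% of all genes were. At an adjusted p below 0.05 with no minimum fold 14 were higher and 14 lower, against 11% and 12% of all genes. Their median was -0.13 (log2). Without vehicle replicate 1 none of the 66 was called (1.33% of all genes) and without vehicle replicate 2 there were 2 (1.69%). Without DMSO replicate 1 the count was 15 (8.32% of all genes), and it was 4 without BI6727 replicate 1 (3.91%) and 4 without BI6727 replicate 2 (3.93%).

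Of 30 tested targets in 5 lists, 4 were called higher and 1 lower, against 2.56% and 2.53% of all genes. Among the arrest genes Plk3, a stress kinase, rose by 1.30 ± 0.14 (adjusted p = 0.000908) and Btg2, an antiproliferative protein, by 1.02 ± 0.17 (adjusted p = 0.00636). Cdkn1a, the p21 inhibitor of cyclin-dependent kinases and the best-known p53 target, stood at 340 and 375 CPM in vehicle, 597 and 698 with DMSO, and 622 and 670 with BI6727. Its difference of 0.86 ± 0.12 had an adjusted p of 0.00294 but a fold of 1.81, under the minimum. The fourth arrest gene at an adjusted p below 0.05 was Plk2, at 0.53 ± 0.11.

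Among the apoptosis genes Pmaip1, which encodes the BH3 protein NOXA, rose by 2.15 ± 0.20 (adjusted p = 0.000458), from 2.86 and 3.78 CPM in vehicle to 13.5 and 16.0 with DMSO, and stood at 10.7 and 11.8 with BI6727. The death receptor gene Tnfrsf10b was 0.63 ± 0.14 higher (adjusted p = 0.0176). Bax (0.39 ± 0.17) and Bbc3, the gene of PUMA (0.47 ± 0.19), had adjusted p-values of 0.131 and 0.122, and both are named after their values were seen. Fas, the other death receptor gene of the list, fell short of the filter, with 480 and 455 counts in vehicle and 156 to 240 in the other libraries. It is named after its values were seen, and with the looser filter of edgeR's filterByExpr it was -1.22 ± 0.20 (adjusted p = 0.00399). With that filter 5 more genes of the lists could be tested. In the DMSO group against vehicle Tigar (0.71 ± 0.18, adjusted p = 0.0266) and Gls2 (1.02 ± 0.29, adjusted p = 0.038) were higher. Sfn, Ddb2 and Pltp did not pass an adjusted p of 0.05 there. With BI6727 against vehicle Pltp was lower (-0.84 ± 0.26, adjusted p = 0.0469), and Tigar and Gls2 did not pass, at adjusted p-values of 0.135 and 0.11.

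Among the metabolic targets Ddit4, an mTORC1 inhibitor also induced by hypoxia and glucocorticoids, rose by 1.05 ± 0.10 (adjusted p = 0.000577), while Dram1, an autophagy regulator of lysosomes, fell by 1.41 (SE 0.20, adjusted p = 0.00316) and was at -2.02 ± 0.21 with BI6727 against vehicle (adjusted p = 0.000703). With BI6727 against DMSO it was at -0.60 ± 0.21 (adjusted p = 0.684), not called. Of the repair genes Polk alone differed at an adjusted p below 0.05, at 0.83 ± 0.13. Of the remaining targets Ninj1 was 0.90 ± 0.17 higher and Pml 0.81 ± 0.18 on the log2 scale lower, both under 2-fold.

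Of 12 tested regulators of p53 none was called, 11 had negative differences, and Atr, the kinase of stalled replication forks, was the one at an adjusted p below 0.05 (-0.70 ± 0.16, 0.0223). The median of the 12 was -0.30 (log2), against -0.0045 over all genes tested. With BI6727 against DMSO 10 of the 12 had positive differences. With the length trend removed Atr was at -0.34 (adjusted p = 0.157). Several of the regulators are long, Atr with 23629 and Cop1 with 17516 exonic bases, and the part of this trend in their signs was not tested. Of 18 cell cycle genes that p53 is known to lower through p21 and the DREAM complex, 16 had negative differences, none was called, and at an adjusted p below 0.05 8 were lower and 1, Mybl2, higher (0.60 ± 0.15), where 12% of all genes were lower and 11% higher. The median of the 18 was -0.28, against -0.0045 over all genes tested. Ccnb2, a mitotic cyclin, was at -0.86 ± 0.18 (adjusted p = 0.015). Plk1, the kinase that BI6727 inhibits, was at -0.52 ± 0.096 (adjusted p = 0.00888) with DMSO and at -0.72 ± 0.096 (adjusted p = 0.0022) with BI6727, each against vehicle and each under 2-fold. With BI6727 against vehicle 16 of the 18 were again negative, none was called and 9 were lower at an adjusted p below 0.05, where 13.2% of all genes were. Their median there was -0.41, against 0.0029 over all genes tested. In bulk RNA a smaller share of cycling cells and less RNA per cell cannot be told apart.

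**Figure D4:**
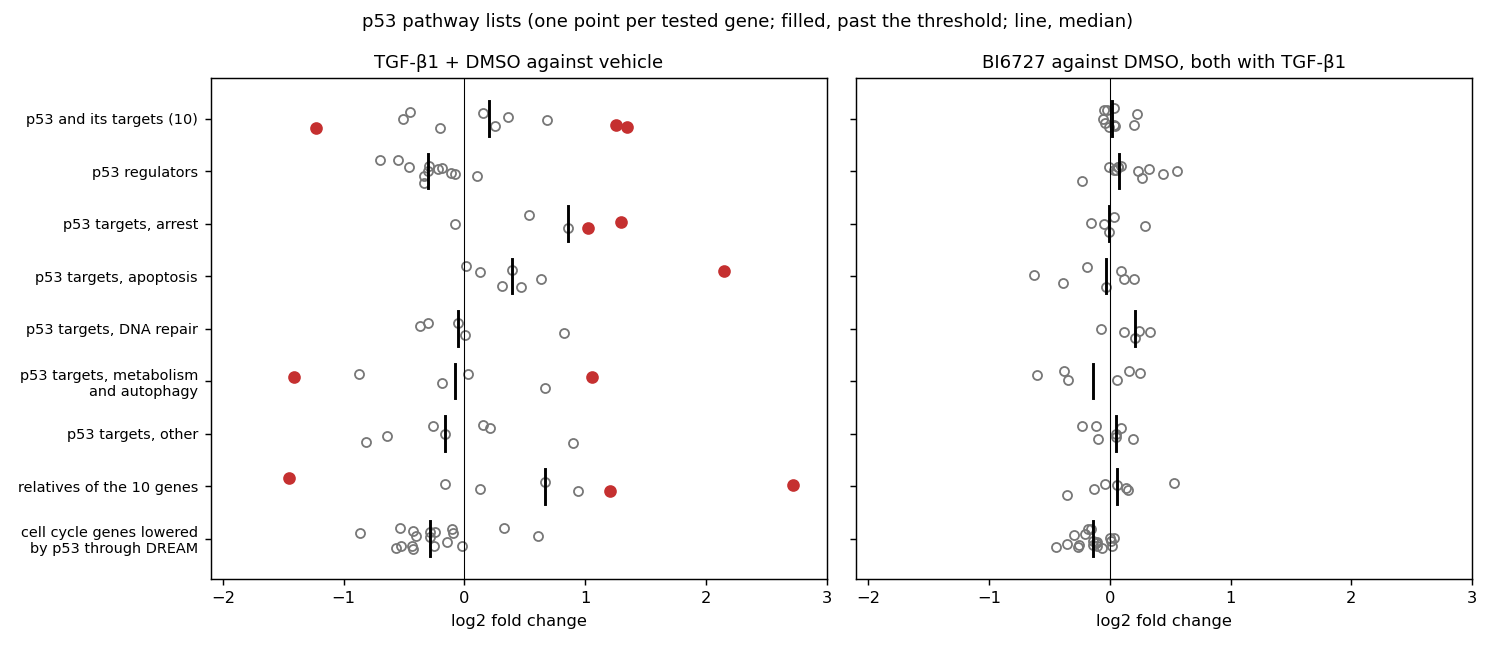
Log2 fold changes of every tested gene of the p53 lists (one point per gene, filled red where past the threshold, black line at the median) with TGF-β1 and DMSO against vehicle (left) and with BI6727 against DMSO (right). On the left filled points lie on both sides of 0, from -1.45 (Sesn3) to 2.72 (Gadd45g), and on the right no point is filled and all lie between -0.63 and 0.56.

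With BI6727 against DMSO none of the 66 genes was called (0% of all genes), and 9 had an unadjusted p below 0.05, 2 higher and 7 lower, against 2.16% and 4.52% of all genes. The largest negative difference was that of Bbc3, -0.63 ± 0.19 (adjusted p = 0.659), a gene chosen after its values were seen. Without DMSO replicate 1 the count was 3, with 0.641% of all genes called. The 30 tested targets had a median of 0.044. With BI6727 against vehicle 6 of the 66 were called, 5 higher (Plk3, Pmaip1, Ccng2, Gadd45b and Gadd45g) and Dram1 lower, where 2.34% of all genes were called higher and 2.96% lower. There, Pidd1, which encodes a scaffold of the caspase-2 complex, was 0.52 ± 0.14 higher (adjusted p = 0.0373), and Ccna2, cyclin A2, was at -0.76 ± 0.10 (adjusted p = 0.00232). The count was 0 without vehicle replicate 1 (1.71% of all genes), 1 without vehicle replicate 2 (2.2%), 3 without BI6727 replicate 1 (2.34%) and 1 without BI6727 replicate 2 (2.35%).

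Mdm2 had the largest difference of the 10 genes from vehicle, the 1.45 of the BI6727 group. Among tested genes outside the lists, the 3 whose log2 CPM followed it most closely over the 6 libraries were Zfand2a, Clcf1 and Gm6634, by root mean square differences of 0.064, 0.083 and 0.085 after centring. Zfand2a, an arsenite-inducible zinc-finger gene, stood at 110 and 124 CPM in vehicle, 291 and 315 with DMSO, and 302 and 327 with BI6727. Clcf1, a cytokine of the interleukin-6 family, stood at 68.1 and 66.2 CPM in vehicle, 148 and 182 with DMSO, and 169 and 180 with BI6727.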

How the data were processed

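RNA of 6 NIH/3T3 libraries was sequenced after rRNA removal as single-end reads. The authors mapped the reads to mm10 with Subjunc (Subread 1.6.4), counted them with featureCounts on the Gencode M20 annotation, and deposited the raw counts of each gene. The strand setting is not given in the sources used here.

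Groups and replicate numbers came from the labels. A minimum of 10 CPM in more than 3 libraries was required, and the genes left were tested in R 4.3.3 with edgeR 4.0.16 (TMM, quasi-likelihood test, all 6 libraries fitted together with 3 residual degrees of freedom), and the p-values were adjusted over all 9518 genes by Benjamini-Hochberg. The SE is the log2 fold change divided by the square root of F. Exact permutation of 2 against 2 libraries cannot go below p = 0.333, so none was run. Alternatives were DESeq2 1.42.0, its size factors, other filters and thresholds, the 2 compared groups alone, the replicate number as a block, length offsets (lowess, span 0.3) and leaving out each library. A crossed block and the leave-outs for further pathway genes were added after seeing the data.

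The members and lists were chosen with earlier results of these data known. Named genes are all members and their relatives, every listed gene called in a comparison, up to 2 further genes per list and comparison with the largest fold change at an adjusted p below 0.05, Cdkn2a, Plk1, Acta2, and the 3 nearest to the member that changed most. Others are said to be chosen after their values were seen, and one result that this rule selects is not reported here. Of the 54752 identifiers, 54723 matched a symbol. Windows shared between genes were 50 bases of Gencode transcripts.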

Additional observations from a re-analysis of the deposited data

How the results depend on the processing

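The direction of each member against vehicle held in all alternatives run, and none passed with BI6727 against DMSO in any of them. Called counts moved with the threshold and the libraries. At an adjusted p below 0.05 with no fold minimum, 5 members were called with DMSO and 6 with BI6727 against vehicle, and 28 and 27 further pathway genes. Of all genes tested, 23% and 24.5% passed there. At an adjusted p below 0.01 with no fold minimum, 15 further genes were called with DMSO, where 9.82% of all genes passed, and 18 with BI6727. With only the 2 groups compared the DMSO group gave 5 further genes, where 3.89% of all genes were called. Leaving out a library gave 0 to 3 members in either comparison with vehicle, 0 to 15 further genes with DMSO and 0 to 6 with BI6727. With BI6727 against DMSO it gave 0 to 3 (Atm, Hipk2 and Ep300 without DMSO replicate 1, named after their values were seen). The cause was not tested.

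With BI6727 against DMSO, uncalled log2 values near 0 changed sign: Ccng1 (0.0062 with filterByExpr, 0.0031 with at least 10 counts, 0.00027 with only the 2 groups, 0.0089 with length offsets, 0.0079 with these and the block) and Aen (-0.00034 with length offsets). Leaving out a library changed the sign of Ccng1 (-0.031 to 0.019), Mdm4 (-0.31 to 0.25), Sesn1 (-0.25 to 0.18), Phlda3 (-0.21 to 0.10), Zmat3 (-0.21 to 0.18) and Gadd45a (-0.081 to 0.158).

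The labels do not say what same-numbered replicates share. Their deviations correlated at -0.11 between the DMSO and vehicle groups, -0.26 between BI6727 and DMSO, and 0.047 between BI6727 and vehicle. The replicate block left 3 members and 7 further genes called in the DMSO group against vehicle, where 4.76% of all genes were called. With BI6727 against DMSO it left 0. A block with the DMSO numbers crossed gave 3 members and 8 further genes with DMSO, where 5.16% of all genes were called.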
